A study of Mus musculus with 6 samples.

Results

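Trichohyalin, the keratins of the inner root sheath and the enzymes that act on them were examined in sorted CD45- cells of MMTV-PyMT mammary tumors that carried the labels RANK+/+ or RANK-/-. The members were 9 genes, Tchh, Krt25, Krt27, Krt28, Krt71, Krt72, Krt73, Padi3 and Tgm3, of 36798 gene entries on the array. They were found through the accession that the array files give for each probe, and 11 probes measured them. The set was chosen with the ratios of this same comparison known, because Tchh and Krt27 were among its lowest genes, so their ratios are given as a description with no test.

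Both genotypes carried MMTV-PyMT, the polyomavirus middle T oncogene driven in mammary epithelium by a viral promoter, and both were on the C57BL/6 background after backcrossing from FVB/N. RANK, the receptor activator of NF-kB, is encoded by Tnfrsf11a, and RANK-/- tumors came from mice lacking it in the germ line. Late carcinoma cells of either genotype were grown as orthotopic transplants, in the mammary gland of syngeneic C57BL/6 hosts, and live CD45- cells, from which leukocytes are depleted, were sorted from the disaggregated tumors. The hosts were females of 6 to 10 weeks at implantation per the study methods. Host fibroblasts and endothelial cells are not removed by this sort. Each array received 1 RNA of each genotype in 2 colors, and 3 pairs of RNAs were hybridized to 2 technical arrays each, named A and B. Separate donor tumors for the 3 RNAs of each genotype are not stated in the sources used here, so the spread between pairs may be partly technical.

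The inner root sheath is the layered sleeve that surrounds and molds the growing hair. Its cells fill with trichohyalin, a large protein that associates with keratin filaments, and with a set of keratins that are made there and in few other places. Type I keratins (Krt25, Krt27 and Krt28) pair with type II keratins (Krt71, Krt72 and Krt73) to form the filaments. Peptidylarginine deiminase 3 (Padi3) turns arginines of trichohyalin into citrulline, and transglutaminase 3 (Tgm3) then cross-links the modified protein to the filaments as the sheath hardens.

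The genes lie in a few places of the genome, and the letters before the start sites of 4 members are shown as a description. In RefSeq order Krt25, Krt27 and Krt28 lie in the type I keratin cluster of chromosome 11 with Krt26 and Krt10 beside them. Krt71, Krt72 and Krt73 lie in the type II cluster of chromosome 15, between Krt5 and Krt2. Tchh is on chromosome 3 among the fused-type S100 genes, Padi3 on chromosome 4 among the other deiminase genes and Tgm3 on chromosome 2. The 250 bases before the start of the 4 members with the lowest ratios among the tested structural genes follow, 5′ to 3′ on the strand of the gene, from RefSeq on GRCm38.p6. They are chr3:93442080-93442329 on the plus strand for Tchh, and chr11:99351119-99351368, chr11:99374904-99375153 and chr15:101802361-101802610 on the minus strand for Krt27, Krt28 and Krt73. Capitals mark matches on either strand to TATAAA (the TATA box), AGATAA (which GATA factors read), CTTTGA (the core read by LEF1 and TCF factors) and TAATTG (a homeobox motif).
Tchh: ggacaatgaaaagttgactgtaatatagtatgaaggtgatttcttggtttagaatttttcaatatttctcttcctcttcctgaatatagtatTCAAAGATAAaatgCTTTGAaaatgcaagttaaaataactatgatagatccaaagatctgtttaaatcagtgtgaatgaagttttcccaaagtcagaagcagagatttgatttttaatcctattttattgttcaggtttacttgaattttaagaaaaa
Krt27: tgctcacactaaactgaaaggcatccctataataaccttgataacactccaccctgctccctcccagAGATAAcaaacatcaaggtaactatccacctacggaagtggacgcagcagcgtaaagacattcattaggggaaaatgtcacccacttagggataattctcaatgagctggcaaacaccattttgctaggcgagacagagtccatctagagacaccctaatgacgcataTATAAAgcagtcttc
Krt28: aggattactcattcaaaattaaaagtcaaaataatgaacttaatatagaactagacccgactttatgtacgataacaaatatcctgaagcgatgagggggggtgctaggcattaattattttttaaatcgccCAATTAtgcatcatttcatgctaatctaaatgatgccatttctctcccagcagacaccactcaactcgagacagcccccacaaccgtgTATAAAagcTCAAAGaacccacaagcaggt
Krt73: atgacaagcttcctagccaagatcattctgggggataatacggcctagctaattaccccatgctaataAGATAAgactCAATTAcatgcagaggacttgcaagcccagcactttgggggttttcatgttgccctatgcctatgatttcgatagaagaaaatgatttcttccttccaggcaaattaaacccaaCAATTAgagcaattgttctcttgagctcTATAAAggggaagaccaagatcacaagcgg

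A TATAAA was found before 7 of the 9 genes, against 12.4% of the 32851 RefSeq promoters of the same length. It lay 30 bases before the start in Krt25, Krt28 and Krt73, 40 in Krt71, 28 in Tgm3 and 15 in Krt27. In Krt72 the match was on the minus strand, 203 bases before the start. No TATAAA was in the Tchh or Padi3 window. AGATAA was found in 5 of the 9 (9.99% of all promoters), namely Tchh, Krt25, Krt27, Krt71 and Krt73. TAATTG was found in 4 (7.17%) and CTTTGA in 2 (13.8%). In Tchh a CTTTGA on the minus strand overlapped the AGATAA. The Tchh window was 27.6% G and C and the Padi3 window 56.0%, with a median of 52.4% over all promoters. These matches describe the letters only.

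The targeted gene was read first, as a check of the labels. The single Tnfrsf11a probe had a clear signal in either channel on every array (6 of 6), and its log2 ratio of RANK-/- over RANK+/+ was 2.03, 1.15 and 1.76 in pairs 1, 2 and 3. It was thus higher in the channel labeled RANK-/-, against the label, and whether the probe lies in the deleted part is not given in the sources used here. All directions below therefore rest on the labels as they stand, and RANK-/- and RANK+/+ mean the RNA or channel so labeled. Epithelial genes of the labeled tissue were present, with Epcam, Krt8 and Krt18 well above background on all arrays. Ptprc, which encodes CD45, was still detected by 5 of 6 arrays in RANK-/- and by 4 of 6 in RANK+/+. Cy5 marked RANK-/- in pair 1 and RANK+/+ in pairs 2 and 3, so dye and pair cannot be told apart for pair 1. All 6 arrays were on 1 slide. Arrays A and B correlated with r of 0.973 to 0.983 across genes, and pairs with r of -0.279 to 0.178. Across all 22503 genes that passed the filter on dim probes, limma called 0 genes (0%) at an adjusted p of 0.05. At an unadjusted p under 0.05 there were 647, and with the 6 arrays entered and the pair as a random block limma called 13.

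Most members had their highest level in a single RNA, the RANK+/+ RNA of pair 1. There Tchh, Krt28, Krt73, Padi3 and Krt25 stood at least 2.52-fold above the next RNA. Krt27 was high in the RANK+/+ RNAs of pairs 1 and 3, while Krt71 and Tgm3 did not follow. Of the 9 members, 7 passed the filter, which asked that 1 genotype be detected above background by arrays A and B alike in 2 or more pairs, and Krt25 and Krt72 did not. Taking all 9, 5 were lower in RANK-/- in all 3 pairs, against 10.3% of all gene entries, and 2 were at least 2-fold lower in all 3 (0.0299%). The members were chosen on this contrast, so nothing is read from these counts. Channel levels below are log2 intensities after loess and Aquantile normalization, the mean of arrays A and B, and can still hold a dye effect.

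**Figure D1:**
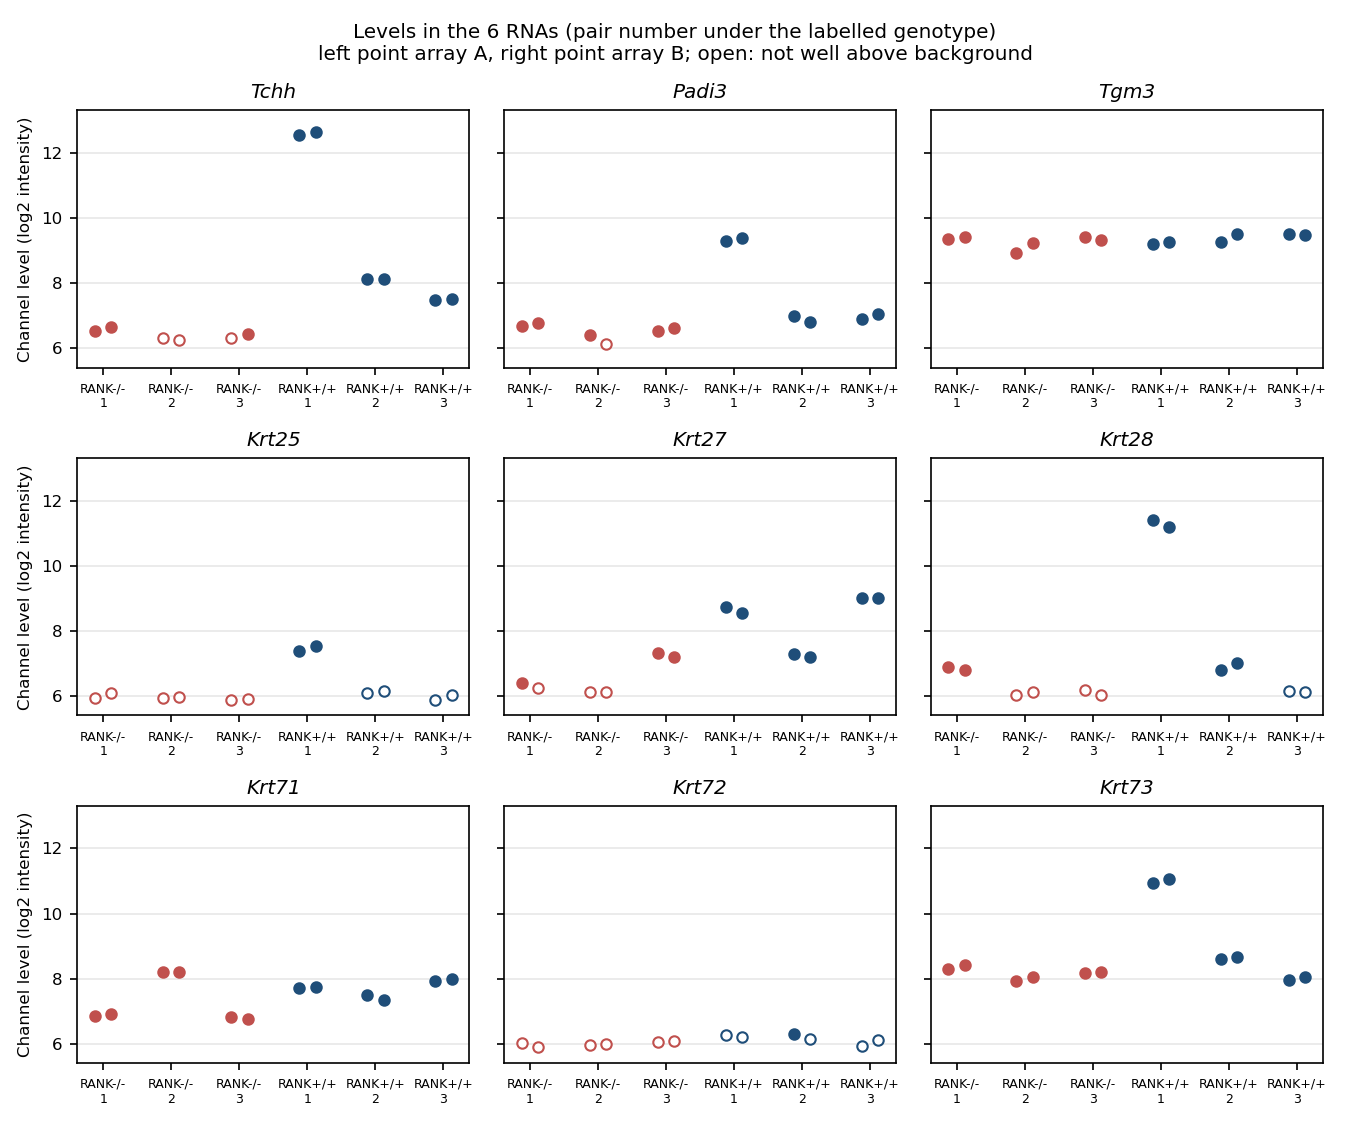
Channel level (log2 intensity) of each gene in the 6 RNAs, 1 point for each technical array, filled where the spot was well above background and open where it was not. The RANK+/+ RNA of pair 1 stands alone for Tchh (12.59), Krt28 (11.29) and Krt73 (11.0), whereas Tgm3 lies between 9.07 and 9.48 in all 6 RNAs.

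Tchh, which encodes trichohyalin, had levels of 6.59, 6.27 and 6.37 in the RANK-/- RNAs of pairs 1, 2 and 3 and of 12.59, 8.12 and 7.49 in the RANK+/+ RNAs. The genotypes did not overlap for Tchh, and the RANK+/+ RNA of pair 1 stood 4.47 log2 units (22.2-fold) above the next highest RNA. In that channel the spot was 5020 and 4987 intensity units over local background on arrays A and B, against 254 and 241 in pair 2 and 141 and 166 in pair 3. In the RANK-/- channel the net intensity was between 4 and 39 on all 6 arrays, and it was called well above background on 3 of them. The log2 ratios were -6.01, -1.85 and -1.12, that is 64.4-fold lower in pair 1, at least 3.60-fold lower in pair 2, where RANK-/- was not well above background, and 2.18-fold lower in pair 3. The mean was -2.99 ± 2.64 (SD, n = 3 pairs), and the mean of pairs 2 and 3 alone was -1.49. The ratio of Tchh ranked lowest of 22503 genes in pair 1 and 491st in pair 3. The offset of 50 added in the background correction pulls dim ratios toward 0, and without it the Tchh ratios were -7.03, -3.28 and -2.14.

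The type I keratins shared the high RANK+/+ RNA of pair 1 but not the values of the other pairs. Krt28 had levels of 6.84, 6.07 and 6.10 in the RANK-/- RNAs and of 11.29, 6.91 and 6.13 in the RANK+/+ RNAs. Only the RANK+/+ RNA of pair 1 was far from the others, by 4.39 log2 units (20.9-fold), and Krt28 was not well above background in the RANK-/- channel of pair 2 or in either channel of pair 3. Its log2 ratios were -4.46, -0.83 and -0.03, with a mean of -1.77 ± 2.36 (SD, n = 3) and -0.43 without pair 1. The Krt28 ratio ranked 2nd lowest in pair 1, and in pair 2 the difference was at least 1.77-fold. A second Krt28 probe, too dim for the filter, gave -2.57 in pair 1, a value of at least 5.64-fold lower since its RANK-/- channel was at background, and -0.18 and 0.00 in pairs 2 and 3.

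Krt27 differed from Krt28, its neighbor on the chromosome. Its levels were 6.31, 6.12 and 7.25 in the RANK-/- RNAs and 8.64, 7.24 and 9.0 in the RANK+/+ RNAs. The highest Krt27 level was in the RANK+/+ RNA of pair 3, followed by that of pair 1 at a distance of 0.36, and the genotypes met, since the RANK-/- RNA of pair 3 (7.25) and the RANK+/+ RNA of pair 2 (7.24) lay at nearly the same level. Within each pair RANK-/- was lower, with log2 ratios of -2.33, -1.12 and -1.75 and a mean of -1.73 ± 0.61 (SD, n = 3). In pair 2, where the RANK-/- channel was not well above background, the difference was at least 2.17-fold. The ranks from the lowest ratio were 66 and 95 in pairs 1 and 3. Krt27 had the smallest SD relative to its mean among the tested members that were lower in all 3 pairs, and leaving out pair 1 brought its mean to -1.44. The size of the Krt27 mean depended on the background correction, with -2.77 without the offset, -2.44 in the deposited series values and -3.55 with the processed signals.

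Krt25 was detected in 1 RNA. Its levels were 6.01, 5.96 and 5.89 in the RANK-/- RNAs and 7.46, 6.13 and 5.95 in the RANK+/+ RNAs, and only the 2 arrays of the RANK+/+ RNA of pair 1 were called well above background. Krt25 was at least 2.55-fold lower in RANK-/- in pair 1, and both channels were at background in the other pairs.

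Among the type II keratins Krt73 followed Krt28. Its levels were 8.36, 8.0 and 8.19 in the RANK-/- RNAs and 11.0, 8.63 and 8.01 in the RANK+/+ RNAs, and all its spots were well above background. The RANK+/+ RNA of pair 1 stood 5.15-fold above the next RNA, and the 5 others lay within the range of 8.0 to 8.63. The log2 ratios were -2.63, -0.63 and 0.18, with a mean of -1.03 ± 1.45 (SD, n = 3), which became -0.22 without pair 1. Under median centring of the arrays in place of loess the pair 3 value of Krt73 turned to -0.25, while the pair 3 values of Krt28 and Krt25 turned to 0.05 and 0.11, so that 4 members were then lower in all 3 pairs.

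Krt71, the type II partner that lies next to Krt5, showed another order. Its levels were 6.90, 8.22 and 6.79 in the RANK-/- RNAs and 7.73, 7.42 and 7.95 in the RANK+/+ RNAs. The RANK-/- RNA of pair 2 was highest, so the genotypes overlapped, and the log2 ratios of -0.83, 0.80 and -1.17 had a mean of -0.40 ± 1.05 (SD, n = 3). Krt72 was close to background throughout, with levels between 5.96 and 6.24, and it was detected on 1 array of RANK+/+ and on 0 of RANK-/-. Its ratios of -0.29, -0.23 and 0.05 are those of signals at background.

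The enzymes differed from each other. Padi3 had levels of 6.72, 6.26 and 6.57 in the RANK-/- RNAs and of 9.32, 6.89 and 6.97 in the RANK+/+ RNAs. The genotypes did not overlap for Padi3, and the RANK+/+ RNA of pair 1 stood 5.11-fold above the next one. Padi3 was well above background on all 6 arrays of RANK+/+ and on 5 of RANK-/-. Its log2 ratios were -2.60, -0.63 and -0.40, with a mean of -1.21 ± 1.21 (SD, n = 3) and -0.51 without pair 1. Tchh and Padi3 were the 2 members of 9 whose RANK-/- RNAs all lay below all RANK+/+ RNAs, a state that 3.44% of all gene entries showed. Tgm3 had levels of 9.38, 9.07 and 9.36 in the RANK-/- RNAs and of 9.22, 9.37 and 9.48 in the RANK+/+ RNAs. It was well above background in all channels, its ratios were 0.16, -0.30 and -0.12 (mean -0.09 ± 0.23, SD, n = 3), and the sign of this mean turned to 0.02 without pair 2. A second Tgm3 probe was not well above background on any array.

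**Figure D2:**
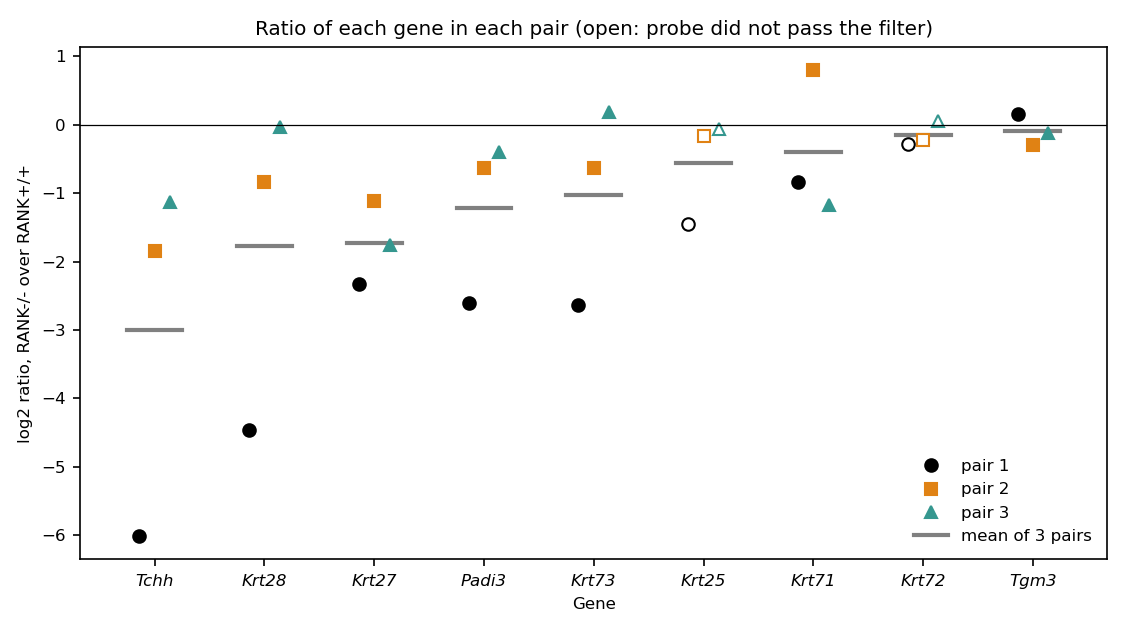
log2 ratio of RANK-/- over RANK+/+ for each gene in each of the 3 pairs, with the mean as a gray line and open symbols for probes that did not pass the filter. Pair 1 gives the lowest value for 7 of the 9 genes, all but Krt71 and Tgm3, and the highest ratio of all is that of Krt71 in pair 2 (0.80).

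Pair 1 carried most of the difference over the set. The median log2 ratio of the 9 members was -2.33 in pair 1, -0.63 in pair 2 and -0.12 in pair 3, beside medians of 0.00 for all gene entries in each pair. In pair 1, 6 of the 9 were at least 2-fold lower in RANK-/-, against 1.88% of all gene entries, in pair 2 this held for 2 (1.47%) and in pair 3 for 3 (1.86%). The median of the 9 mean ratios was -1.03, and leaving out pair 1 brought it to -0.22. The median without pair 2 was -1.23 and without pair 3 -1.62. Arrays A and B of a pair differed by 0.05 to 0.17 at most for the brightest probe of each member. The RANK+/+ RNA of pair 1 was the highest of the 6 for 6 of 9 members, beside 16.5% of all gene entries.

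**Figure D3:**
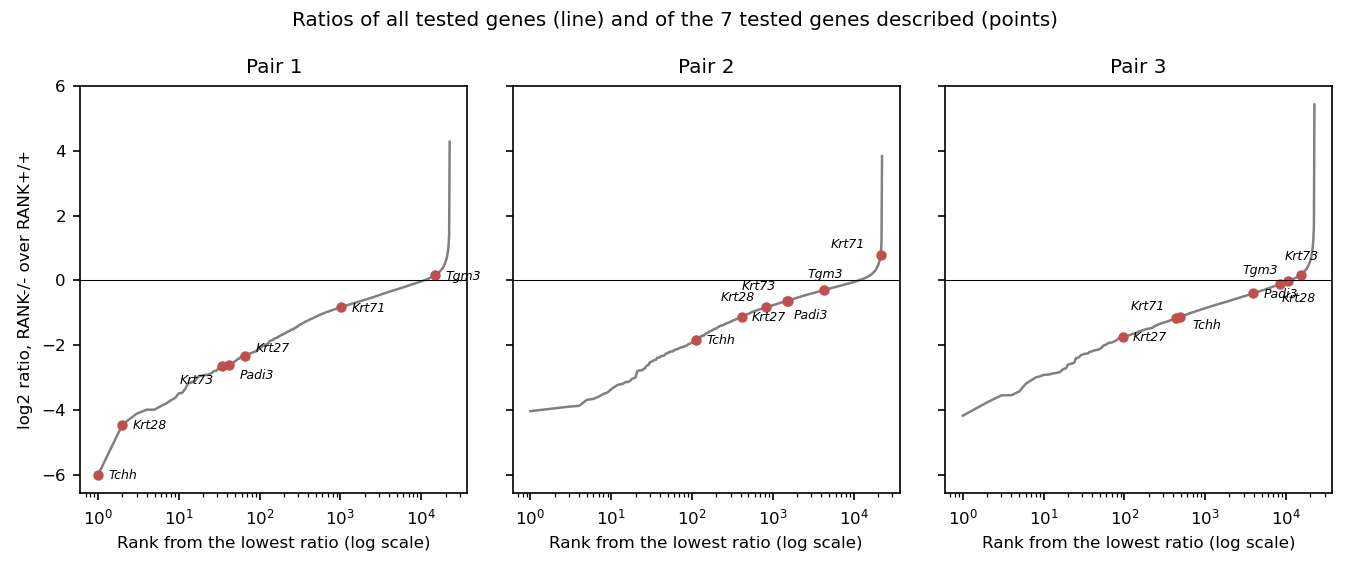
log2 ratio of all 22503 tested genes, sorted from the lowest (gray line, log scale of rank), with the 7 tested members as points in pairs 1, 2 and 3, signals at background included as measured. Tchh and Krt28 are the 2 lowest genes of pair 1, and 3 more members lie among its 66 lowest, whereas in pair 3 the members spread from rank 95 (Krt27) to rank 15356 (Krt73).

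Likeness between members was described by Pearson r over the 6 RNAs, where both RNAs of a pair share their arrays and 1 RNA lies far out. Tchh, Padi3, Krt28 and Krt73 had r of 0.966 to 0.996 with each other. Krt27 had r of 0.634 with Padi3 and 0.624 with Tchh, and of 0.452 and 0.455 with Krt28 and Krt73. Krt71 had r of 0.0860 to 0.257 with the other keratins, Tchh and Padi3, and Tgm3 lay between -0.469 with Krt71 and 0.445 with Krt27. The 4 genes most alike thus included the trichohyalin gene, its deiminase and 1 keratin of each type, from 4 chromosomes.

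The 10 genes whose levels were most like the mean standardized profile of the 7 tested members were taken from 825 candidates that spanned at least 2 log2 units. They were Trim29 (r = 0.992), Galnt14 (0.985), Car2 (0.985), Cyp26a1 (0.983), Cers3 (0.976), Nfe2l3 (0.960), Sostdc1 (0.957), Dynap (0.956), Wnt6 (0.953) and As3mt (0.949). Trim29 had levels of 8.02, 7.56 and 7.79 in the RANK-/- RNAs and 9.98, 8.27 and 8.91 in the RANK+/+ RNAs. Wnt6, a secreted Wnt ligand, reached 9.98 in the RANK+/+ RNA of pair 1 and lay between 6.43 and 7.34 in the others. Cyp26a1, which degrades retinoic acid, reached 9.14 there and lay between 6.49 and 7.91 elsewhere. Cers3, a ceramide synthase of the epidermal barrier, had its highest level of 10.40 in the same RNA, with 8.81 next in the RANK+/+ RNA of pair 3. All 10 were lower in RANK-/- in all 3 pairs, which their likeness to the profile largely fixes.

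**Figure D4:**
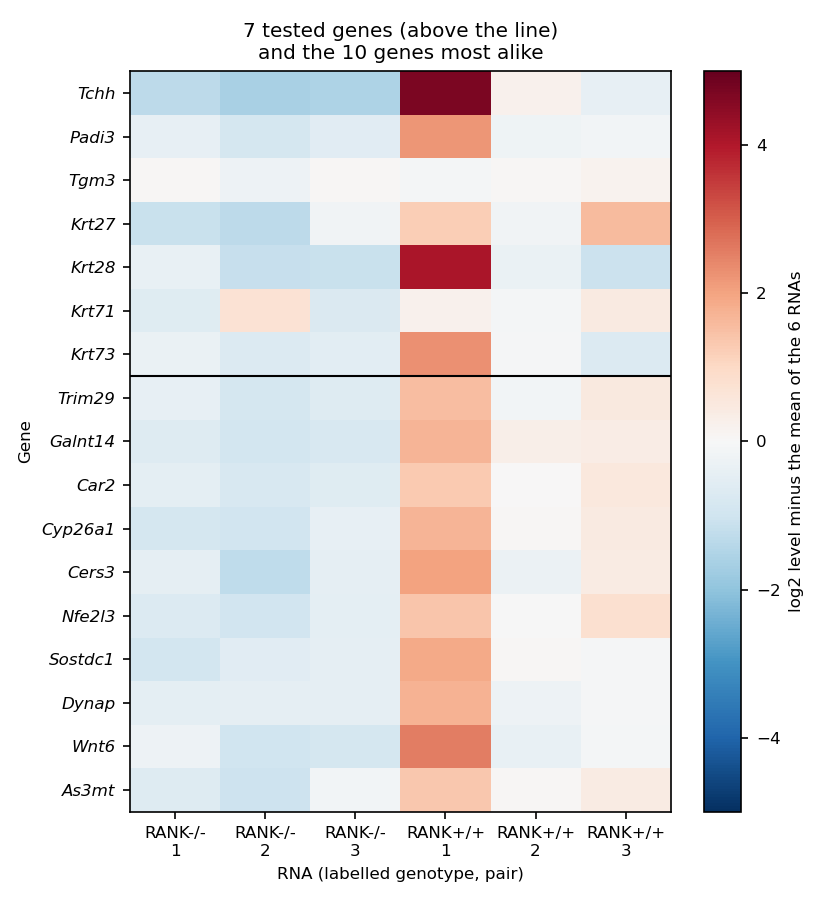
log2 level minus the mean over the 6 RNAs for the 7 tested members (above the line) and the 10 genes whose levels were most like their mean profile (below it). The RANK+/+ RNA of pair 1 is the darkest red column for all rows except Tgm3, Krt27 and Krt71.

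Relatives of the members on the array that were too dim to be tested held the same RNA in part. Of the other inner root sheath keratins, Krt26, which lies between Krt25 and Krt27, was well above background on both arrays of the RANK+/+ RNA of pair 1, on 1 array of RANK+/+ in pair 2 and on no array of RANK-/-. Krt74, a transcribed pseudogene in RefSeq, did not follow, with 5.98 in that RNA and 5.99 to 6.16 in the others. It was well above background on 1 array in all. Krt75, a keratin of the companion layer that joins the inner to the outer sheath, had levels of 5.96, 6.21 and 5.96 in the RANK-/- RNAs and of 6.91, 6.21 and 5.93 in the RANK+/+ RNAs. Among the fused-type S100 genes that neighbor Tchh, Rptn had a level of 7.88 in the RANK+/+ RNA of pair 1 and of 5.88 to 6.03 in the other 5, where it was not well above background. Tchhl1 had 7.01 in the same RNA and 5.92 to 6.05 in the others. Hrnr was not well above background on any array, and Flg2 and Crnn were on the same number of arrays in both genotypes. Rptn and Tchhl1 are named because of these levels, which were seen first.

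Krt26, the pseudogene Krt74 and Krt75 belong to a list of 7 further keratin genes of the inner root sheath, the companion layer and the activated outer sheath. The other 4, Krt6a, Krt6b, Krt16 and Krt17, were tested, and 0 passed limma, with Krt16 at an unadjusted p under 0.05 (2.88% of the tested genes). All 4 had their highest level in the RANK+/+ RNA of pair 1, beside 16.3% of the tested genes. Krt16 had levels of 9.95, 8.27 and 9.12 in the RANK-/- RNAs and of 12.36, 10.60 and 9.51 in the RANK+/+ RNAs, and its mean ratio was -1.71 ± 1.14 (SD, n = 3). Krt17 had a mean of -1.23 ± 1.14, Krt6b of -0.89 ± 1.27 and Krt6a, which lies near Krt71, of -0.80 ± 1.11, each with pairs on either side of 0. The median of the 4 means was -1.06, and 1 of the 4, Krt16, was lower in all 3 pairs, beside 9.65% of the tested genes.

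Other deiminases and transglutaminases were split. Of 11 on the array 9 were tested, 0 were called by limma or had an unadjusted p under 0.05, 0 were lower and 1 was higher in all 3 pairs (9.93% of tested genes were higher), and their median mean ratio was 0.03. Of the 9, 3 were highest in the RANK+/+ RNA of pair 1, beside 16.3% of the tested genes, and these were Tgm5, Padi4 and Padi1. Tgm5, a transglutaminase of the epidermis, had 8.91 in the RANK+/+ RNA of pair 1 against 6.51 to 6.91 in the other 5. Padi2, the deiminase of wide expression, went the other way, with 9.99, 11.36 and 9.91 in the RANK+/+ RNAs, 12.49, 10.85 and 12.61 in the RANK-/- RNAs and a mean ratio of 1.56 ± 1.80 (SD, n = 3). Tgm2 had a mean ratio of 0.78 ± 0.66 and was the gene higher in all 3 pairs. Padi4 and Padi1, the neighbors of Padi3, had 9.22 and 8.17 in the RANK+/+ RNA of pair 1, against 7.36 to 8.65 and 7.06 to 7.49 in the others, and mean ratios of -0.06 and -0.22.

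Genes of the hair shaft, which the inner root sheath encloses, were mostly too dim for the filter. Of 14 hair shaft keratins on the array 3 were tested, and their mean ratios were -0.07 (Krt31), 0.06 (Krt81) and 0.08 (Krt86). None was lower or higher in all 3 pairs. The highest level was in the RANK+/+ RNA of pair 1 for 2 of the 3, beside 16.3% of the tested genes. These were Krt31 (7.14 against 6.84 to 6.97) and Krt81 (9.56 against 8.71 to 9.52). Of the 11 untested ones 4 were never well above background, and none was above it on more than 3 arrays of a genotype. Krt32, Krt33a, Krt33b, Krt36, Krt84 and Krt87 were above it on more arrays of RANK+/+ than of RANK-/-, and Krt35 on 2 of each. The levels of these untested keratins in each RNA were not examined. Of 51 keratin-associated protein genes 18 were tested, and 21 were never well above background. Of the 18, 4 were highest in the RANK+/+ RNA of pair 1, beside the same 16.3%. The median mean ratio of the 18 was 0.08. Krtap17-1 had the lowest mean of these, -0.88 ± 0.62 (SD, n = 3), with levels of 7.66 and 7.52 in the RANK+/+ RNAs of pairs 1 and 3 and of 6.24 to 6.81 in the others. The next in size were Krtap19-4 (0.30), Krtap16-3 (0.18), Krtap10-10 (0.16), Krtap19-5 (0.16) and Krtap19-2 (0.15).

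Regulators of the hair follicle were split. Of 32 on the array 25 were tested, 0 were called by limma, and 3 had an unadjusted p under 0.05 (2.88% of the tested genes). In all 3 pairs 7 were lower (9.65%) and 1, Trps1, was higher (9.93%), with a median mean ratio of -0.28. Their highest level was in the RANK+/+ RNA of pair 1 in 9 of 25, beside 16.3% of the tested genes. Sostdc1, a secreted inhibitor of BMP and Wnt signals, had 9.62 in that RNA, 7.79 and 7.67 in the other RANK+/+ RNAs and 6.82 to 7.26 in RANK-/-, with a mean ratio of -1.28 ± 1.33 (SD, n = 3). Foxq1, a forkhead factor known from hair differentiation, had 9.18 there and 6.48 to 6.74 in the other 5 RNAs. Fst, which encodes the activin binder follistatin, had 11.22 there and 8.63 to 9.35 elsewhere. Gli1, a target of Hedgehog signals, was high in the RANK+/+ RNAs of pairs 1 (9.16) and 3 (8.80) and between 6.98 and 7.83 in the rest. Bmp4 and Msx2, a BMP ligand and a homeobox gene, had mean ratios of -0.75 ± 0.34 and -0.63 ± 0.28.

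Unlike the regulators named above, some genes of the same list were undetected or had a mean ratio in the other direction. Foxn1 and Hoxc13, both needed for hair keratin genes, and Dsg4, the desmoglein of the hair, were not well above background on any array. The other untested regulators were above it on more arrays of RANK+/+ than of RANK-/-. Shh, Edar and Edaradd were so on 2, 2 and 1 arrays of RANK+/+ and on 0 of RANK-/-. Wnt10b was so on 3 of RANK+/+ and 1 of RANK-/-, and the levels of these untested genes in each RNA were not examined. Gata3, required for the inner root sheath and also a factor of luminal mammary cells, had levels of 12.53, 13.2 and 12.45 in the RANK+/+ RNAs and of 13.2, 13 and 13.73 in the RANK-/- RNAs. Its mean ratio was 0.59 ± 0.75 (SD, n = 3). The genes of this paragraph, and Trps1, are named after their values were seen. They do not stand for the whole list. Which cells the transcripts of the members came from was not tested, so the members are called here by their genes.

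**Figure D5:**
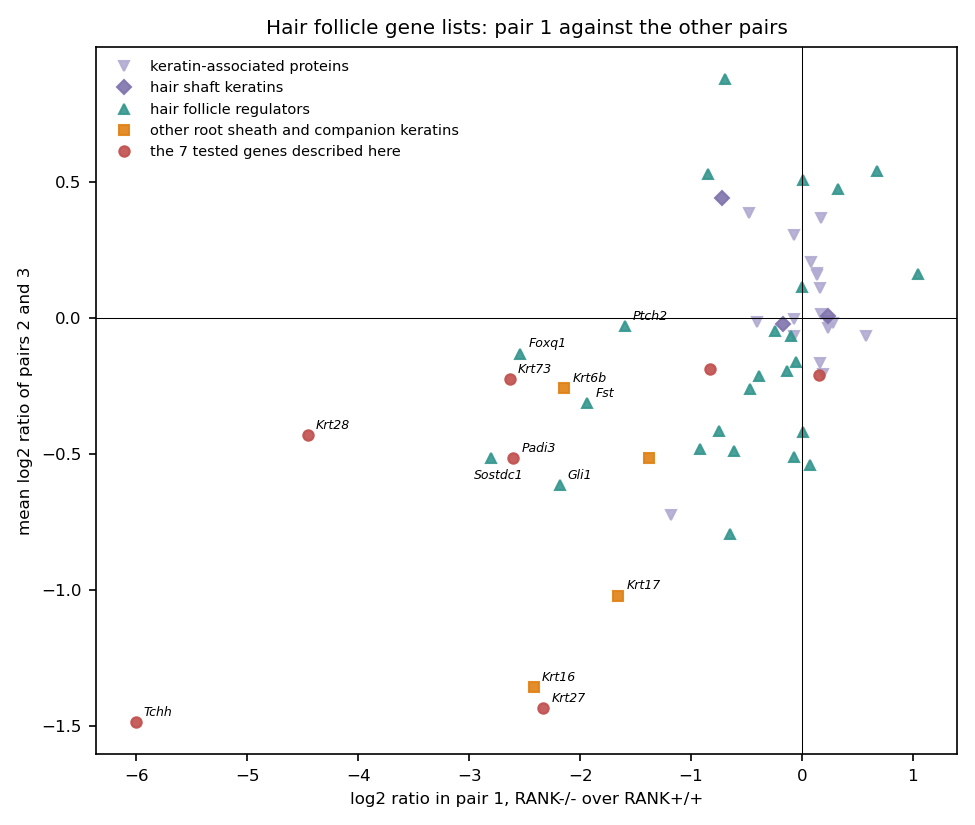
Mean log2 ratio of pairs 2 and 3 against the log2 ratio of pair 1 (RANK-/- over RANK+/+) for tested genes of the hair follicle lists, each symbol a gene. Tchh (-6.01) and Krt28 (-4.46) lie far to the left and Sostdc1 (-2.80 in pair 1) lies among the members, while the hair shaft keratins Krt31 and Krt86 lie near 0 on both axes and Krt81 has -0.72 in pair 1.

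Neighbors of the members on the chromosome gave mixed values. Krt10, the epidermal type I keratin next to Krt28, was lower in RANK-/- in all 3 pairs, with log2 ratios of -0.36, -0.81 and -1.5 and a mean of -0.89 ± 0.57 (SD, n = 3), and its highest level was in the RANK+/+ RNA of pair 3. Krt20 and Krt23, further along the cluster, had mean ratios of -0.10 and -0.15, and Krt222 and Smarce1, on the side of Krt25, of 0.03 and -0.27. In the type II cluster Krt5 had a mean of -1.07 ± 1.27, the pseudogene Gm5478 of -0.28 and Krt2, next to Krt73, of 0.00. Next to Tchh, S100a10 had a mean of -0.54 ± 0.39 and S100a11 of 0.14 ± 1.02. Near Padi3 the non-coding RNA gene Gm13032 was lower in all 3 pairs, with a mean of -0.50 ± 0.31, and Rcc2 had -0.36. Next to Tgm3, Stk35 had 0.17 and Stk35os1 0.11. None of these neighbors was called by limma (adjusted p 0.999 for each).

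The summed linear level of the 7 tested members was 12584 in the RANK+/+ RNA of pair 1, 1897 and 2110 in the other RANK+/+ RNAs and 1382 to 1509 in RANK-/-. Among the basal and luminal markers, some were highest in the RANK+/+ RNA of pair 1 and others were lowest there. Of the 8 basal epithelium markers 3, the keratins Krt5, Krt14 and Krt15, were highest in that RNA, beside 16.3% of the tested genes. Krt5 had 14.38 there and 10.89 to 13.01 in the others, and Krt15 had 10.73 against 8.41 to 9.68. The basal markers Oxtr, Acta2, Mylk and Trp63 were lowest in the same RNA, Oxtr with 8.50 against 9.71 to 10.45 and a mean ratio of 0.89 ± 0.89 (SD, n = 3). The sum over the 8 markers was 44467 there and 23186 to 28790 in the others, and most of it came from Krt5 and Krt14. Of the 10 luminal markers 2, Krt19 and Csn2, were highest in that RNA, while Epcam, Kit and Elf5 were lowest there. Their sum of 245642 lay inside the range of the other RNAs (117157 to 486234), but most of it came from Krt18. Krt18, the brightest of the 10, was at 16.98 there and at 15.98 to 18.09 in the others. The milk gene Csn2 was at 9.76 in that RNA and at 5.88 to 6.83 elsewhere, whereas the milk genes Csn3 (8.81) and Lalba (15.08) lay within the range of the other RNAs. The tested epidermis markers did not single it out. Of 11 on the array 4 were tested, 0 were highest in that RNA, and Ivl, Kprp and Krt77 were never well above background. Of the untested ones, Dsc1, Dsg1a and Sprr1b were above it on 2, 3 and 3 arrays of RANK+/+ and on 0, 1 and 1 of RANK-/-. Krt1 was above it on 0 of RANK+/+ and 2 of RANK-/-, and the levels of these untested genes in each RNA were not examined. Sprr1a had its highest level, 10.63, in the RANK+/+ RNA of pair 2, and Lor, which encodes loricrin, had a mean ratio of -0.24 ± 0.70. Leukocyte markers were highest in the RANK+/+ RNA of pair 1 for 5 of 7 tested, beside the same 16.3%, with Ptprc at 7.38 against 6.08 to 6.45 in the others. Their summed level there (8402) lay inside the range of the other RNAs (6465 to 9781), but most of it came from Itgam. Itgam, the brightest of the 7, was at 12.37 there and at 12.28 to 12.87 in the others, and was not among the 5. Cd52 and Coro1a had mean ratios of 0.50 and -0.29. The part of these cells and of 1 unusual RNA in the values of the members was not tested, and fewer cells of a kind cannot be told apart from less RNA per cell in such bulk samples. Without pair 1, Tchh and Krt27 were the members that stayed at least 2-fold lower in RANK-/- in the mean, at -1.49 and -1.44.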

How the data were processed

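RNA of 3 RANK-/- and 3 RANK+/+ samples was hybridized as 3 pairs to 6 two-color Agilent arrays, with groups, pairs and dyes taken from the sample labels. The authors extracted the spots with Agilent Feature Extraction 10.7.3.1, per the submitters' processing notes, and the deposited scanner tables hold median spot and background intensity values, which are not normalized. Their processed intensities and log10 ratio (Cy5 over Cy3) are background-subtracted and dye-normalized per the file headers. The deposited table of the series holds log2 ratios normalized by the authors. Its scale, centring and direction are not stated, but set against the scanner ratios it ran as RANK-/- over RANK+/+ on all arrays (r = 0.825 to 0.858), with column medians of -0.00763 to 0.00732. Processed intensities and the series values served as alternatives. The study methods describe dye swaps, whereas arrays A and B of a pair have the same dyes per the labels.

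Median intensities were corrected with normexp (offset 50) in limma 3.58.1 (R 4.3.3, data.table version 1.17.8). Control spots (3671) and 212 to 260 outlier spots per array were removed, and 0 spots were saturated. Loess was run within arrays and Aquantile between them. The spatial loess that the methods also name was not run. Spots of a probe were averaged, ratios turned to RANK-/- over RANK+/+, and arrays A and B averaged, so that n = 3 pairs. A probe was kept if 1 genotype was called above background by arrays A and B alike in 2 or more pairs (30231 of 55681 probes, with 51.9% to 58.8% of probes above background per array and channel). The brightest probe stood for a gene. RefSeq symbols (GRCm38.p6) matched 28026 probes by accession, and other probes were left under their deposited names. The grid of the array is on another build, so positions on the array are not given. Genes were tested with limma (intercept only, two-sided, Benjamini-Hochberg, threshold 0.05), a script tested on simulated data. The rank product of the study was not run, since its error rate rests on permuting genes. Where a dim channel was not well above background on both arrays of a pair, a fold is given as a bound against the dimmest signal well above background or the channel's own signal, whichever was higher.

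The members and the gene lists were chosen with earlier results of these data known. Named by rule were all members, Tnfrsf11a, up to 3 genes per list with the largest mean ratio in size (6 for lists over 15 tested), tested genes among the 5 nearest on each side of a member, and the 10 genes most alike. Alternatives were the background correction, offsets 0 and 16, median centring, the processed signals, the series values, single technical arrays, a dye term, other filters and probe rules, other variance models, no replicate block, and leaving out each pair. With 3 pairs, precision is limited by the number of arrays.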

Additional observations from a re-analysis of the deposited data

How the results depend on the processing

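Leaving out 1 pair at a time brought the median of the 9 mean log2 ratios to between -1.62 and -0.22, with pair 1 as the pair that mattered most. Limma called 0 genes in each of these runs. Of 144 values of single members under the alternatives, 34 could not move by construction (filters, no block, or a single probe). Of the other 110, 8 moved by more than the SD between pairs, all of them of Krt25, Krt27 and Krt72, and 1 changed sign (Tgm3 without pair 2). Leaving out 1 pair or adding the dye term cannot shift a mean of 3 pairs by that SD. Such values among the 110 therefore could not count as moved, and this count does not show that they were stable. Without pair 1 the mean of Krt28 went from -1.77 to -0.43 and that of Krt73 from -1.03 to -0.22. The processed signals gave the lowest Tchh mean, -4.86, and Krt27 then had -3.55. With the 6 arrays entered and the pair as a random block (consensus correlation 0.962), limma called 13 genes, where the test on 3 pairs called 0 and all other alternatives run called 0. With no replicate block, taking the channels as 3 and 3 samples, it also called 0. The median of the member ratios, -1.03, is the same in both by construction. Deviations of the RNAs of a pair from their genotype means correlated at -0.0335, -0.218 and -0.0412. With the series table the median of the members was -1.08, with median centring -1.16 and with a dye term -1.43. Signals near background limit Krt25, Krt72 and the RANK-/- values of Tchh, Krt27 and Krt28.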

Other observations

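Cell types other than the epithelium differed between the pairs in their own ways, by lists of markers that were chosen with earlier results known. Fibroblast markers were all tested (6), and Col1a2, Dcn and Lum had mean log2 ratios of 1.28 ± 0.96, 1.24 ± 1.83 and 1.05 ± 1.28 (SD, n = 3 pairs). Of these 6 genes 3 were higher in RANK-/- in all 3 pairs, beside 9.93% of the tested genes, and limma called 0. Their summed linear level was 137045 to 221739 in the RANK-/- RNAs and 140910, 76316 and 46485 in the RANK+/+ RNAs of pairs 1, 2 and 3. The 6 endothelial markers, all tested, had a median mean ratio of 0.15, and limma called 0. Cldn5, at 0.55 ± 0.36, was the 1 gene higher in RANK-/- in all 3 pairs, beside the same 9.93%. Tek and Kdr were at 0.21 and 0.17. Of the melanocyte markers Mitf had 0.72 ± 0.78 and Mlana -0.07, and the pigment enzyme gene Tyr lay between 6.51 and 6.67 in all 6 RNAs.

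The 4 tested markers of the dermal papilla, the mesenchymal core of the hair follicle, differed from each other. Rspo3, which encodes an R-spondin that strengthens Wnt signals, was at 9.50 in the RANK-/- RNA of pair 2 and at 6.10 to 6.48 in the other 5, the RNA in which Krt71 also had its highest level (8.22). Lepr was highest in the RANK-/- RNA of pair 3 (11.19) and Crabp1 in that of pair 1 (8.35), and Alpl was at 12.05 in the RANK-/- RNA of pair 3 and the RANK+/+ RNA of pair 1. Alpl and Crabp1 had mean ratios of 0.71 ± 1.33 and 0.71 ± 1.29, and Corin and Sox2 were not well above background on any array. Luminal genes differed in both directions between pairs, with Krt19 at -1.22, -3.95 and 0.03 and Elf5 at 0.73, -0.12 and 1.22.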
